A study of Mus musculus with 6 samples.

Results

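The 10 genes followed here belong to transforming growth factor beta (TGF-beta) signalling in the mouse heart: the ligands Tgfb1, Tgfb2 and Tgfb3, the receptors Tgfbr1, Tgfbr2 and Tgfbr3, the inhibitory Smads Smad6 and Smad7, the latency protein Ltbp1 and the matrix protein Tgfbi. They were taken by name, through every probe set that the platform table assigns to 1 of these symbols alone, which gave 25 probe sets for the 10 genes, out of 18193 genes with such a probe set on the array. Each gene was read from its probe set with the highest mean signal over the 6 arrays. All 10 genes passed the filter on dim probe sets, among 12965 genes tested.

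The hearts came from 3 wild-type (WT) mice and 3 mice labelled KO, which lack ERRα (estrogen-related receptor alpha, gene Esrra) by the series' design text. ERRα is an orphan nuclear receptor that controls genes of mitochondrial energy metabolism. All 6 mice were male and under basal conditions, and 5 are labelled C57BL/6J aged 2 to 3 months; the label of WT 1 gives neither strain nor age. Hearts are listed throughout in the order 1, 2, 3 of their titles. Each heart had its own Affymetrix Mouse430_2 array, with the chip type taken from the header of 1 array. How the null allele was made is not given in these sources.

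Some facts about the arrays bear on all of the values. Esrra, the targeted gene, had a signal of 368.1, 394.4 and 349.1 in WT. In KO 2 it was 24 and in KO 3 it was 18. At 180.1, or 48.6% of the mean over WT, the library labelled KO 1 goes against its label, so each direction below is drawn with a doubtful library included. WT 1 was the brightest array, with a median signal of 16 against 12.4 to 13.7 in the others, and a comment in its array header numbers it differently from its title. Markers of cardiomyocytes (Myh6, Tnnt2, Actc1 and others) were high in every heart, with a summed signal of 65130 to 72320 in WT and 62400 to 66000 in the libraries labelled KO.

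TGF-beta is secreted as a latent complex, in which the ligand stays bound to its own propeptide and, through it, to a latent TGF-beta binding protein such as Ltbp1 that anchors it in the matrix. Once released, the ligand assembles the receptors Tgfbr2 and Tgfbr1, which phosphorylate Smad2 and Smad3, and the nuclear Smad complex then induces matrix genes and also Smad7, which closes a negative feedback loop. In the heart the pathway is best known for its part in fibroblast activation and fibrosis.

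None of the 10 genes passed the test between WT hearts and the libraries labelled KO. The count was 0 of 10, at an adjusted p under 0.05 in limma with Benjamini-Hochberg adjustment over all genes tested, where 3.00% of all genes passed, 1.81% higher and 1.19% lower. At an unadjusted p under 0.05 there were 3 of 10 (Tgfbi, Smad7 and Tgfb3), all higher in the libraries labelled KO, where 12.5% of all genes were past that level in either direction with 6.08% in this direction and 6.46% in the other. That count was 0 without KO 3, 1 without WT 2, 2 without WT 3, 3 without KO 1 or KO 2 and 4 without WT 1. The log2 difference was positive for 9 of the 10 genes, against 44.9% of all genes, and the median over the 10 was 0.21, against -0.028 over all genes. All 3 libraries labelled KO lay above all 3 WT hearts for Tgfbi, Smad7 and Tgfbr3, where 6.80% of all genes were separated in that way; no member was separated downward, as 9.43% of all genes were. These counts describe the genes and were given no test of their own.

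**Figure D1:**
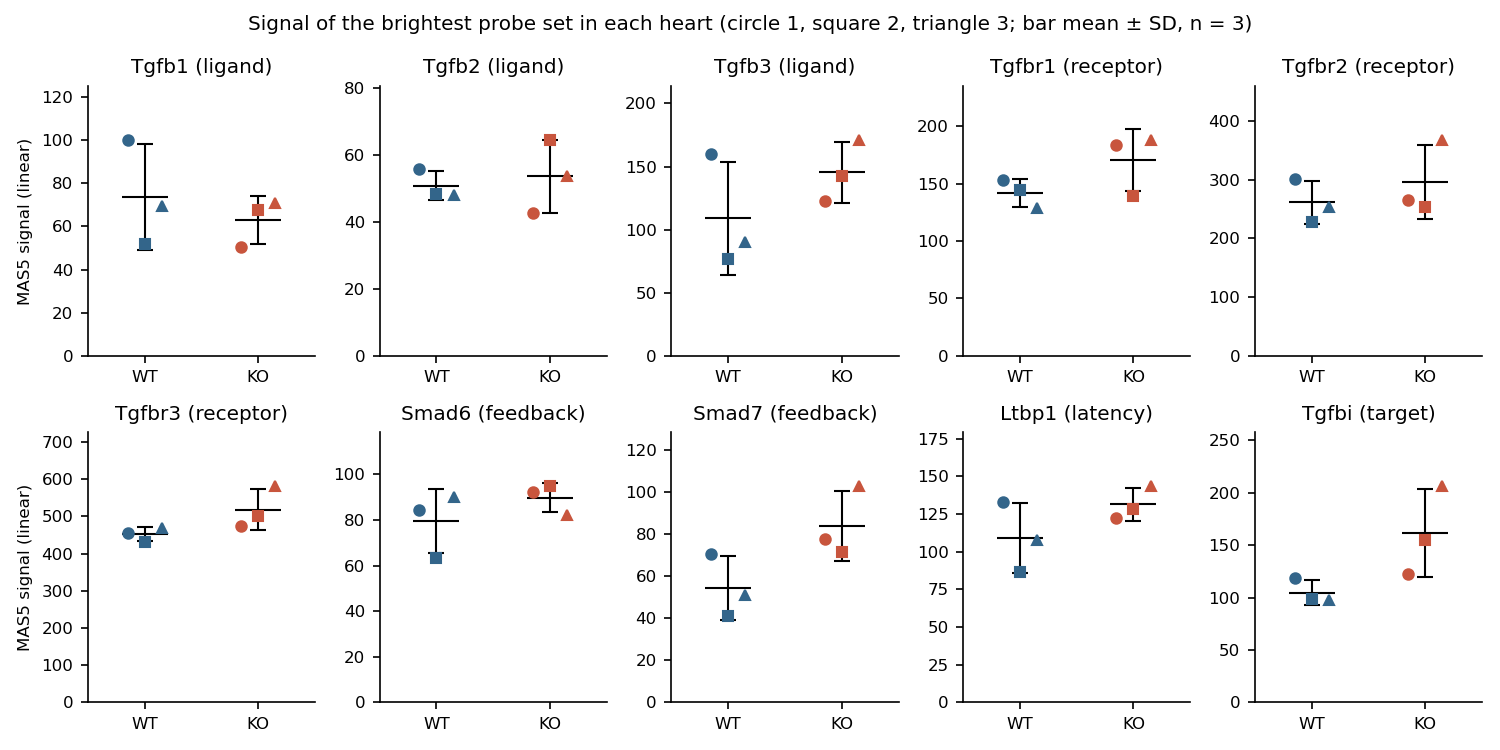
MAS5 signal on a linear axis from 0 for each of the 10 genes, with WT hearts in blue and libraries labelled KO in red; circles, squares and triangles are hearts 1, 2 and 3, and bars are means ± SD (n = 3 each). The groups are apart for Tgfbr3, Smad7 and Tgfbi and overlap for the other 7 genes.

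Tgfb1 encodes the ligand most often linked to fibrosis. Its signal was 100.1, 51.7 and 69.6 in WT, against 50.4, 67.7 and 70.8 in the KO-labelled libraries. The groups overlapped, and WT 1 was the highest heart and the library labelled KO 1 the lowest. The log2 difference was -0.16 (SE 0.184, 95% interval -0.53 to 0.21, limma adjusted p = 0.814). Its sign rested on WT 1, without which the difference was 0.043, and it was -0.35 without WT 2 and -0.040 without KO 1. The other Tgfb1 probe set, dim with a mean signal of 14.97, was at 0.052 (SE 0.224), so the sign also differed between probe sets.

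Tgfb2, a ligand needed for cardiac valve and septum formation, gave 55.8, 48.4 and 48.2 in WT, against 42.8, 64.5 and 53.6 in the KO-labelled libraries. The libraries labelled KO lay on both sides of the WT hearts. The log2 difference was 0.05 (SE 0.177, 95% interval -0.31 to 0.41, limma adjusted p = 0.953), and with 1 heart left out it ran from -0.060 (without KO 2) to 0.17 (without KO 1). Of the 3 other Tgfb2 probe sets, those with mean signals of 21.1 and 7.17 overlapped, at 0.16 and 0.09. The third, with a mean signal of 18.7, gave 14.8, 17.4 and 11.8 in WT, against 25.3, 22 and 21 in the KO-labelled libraries, with no overlap.

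Tgfb3 was the ligand with the largest difference. It gave 160.2, 77.1 and 90 in WT, against 122.6, 142.6 and 171 in the KO-labelled libraries. WT 1 lay above 2 of the 3 libraries labelled KO, while WT 2 and WT 3 lay below all of them. The means were 109 ± 44.7 and 145 ± 24.3 (SD, n = 3), and the log2 difference was 0.41 (SE 0.189, 95% interval 0.035 to 0.79, limma adjusted p = 0.33). Without WT 1 and KO 1, the arrays in doubt (a setting chosen after seeing the data), it was 0.79 (limma adjusted p = 0.0123). With 1 heart left out it did not pass, and ran from 0.23 (without WT 2, limma adjusted p = 0.766) to 0.69 (without WT 1, limma adjusted p = 0.0667), with 0.30 without KO 3.

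Among the receptors, Tgfbr1 encodes the type I kinase that phosphorylates Smad2 and Smad3. Its signal was 153, 144.1 and 128.7 in WT, against 183.5, 139.2 and 188 in the KO-labelled libraries, where KO 2 fell within the WT range. Tgfbr2, the type II kinase that binds the ligand, gave 301.6, 228.8 and 254.5 in WT, against 266.3, 254 and 367.8 in the KO-labelled libraries, where KO 3 alone lay above the WT hearts. The log2 differences were 0.23 (SE 0.171) for Tgfbr1 and 0.16 (SE 0.169) for Tgfbr2, with limma adjusted p of 0.661 and 0.798. Their 95% intervals, -0.11 to 0.57 and -0.18 to 0.50, include both no difference and the size seen for Tgfb3. With 1 heart left out Tgfbr1 ran from 0.16 (without KO 3) to 0.36 (without KO 2), and Tgfbr2 from 0.00028 (without KO 3) to 0.26 (without WT 1).

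Tgfbr3 encodes betaglycan, a co-receptor without kinase activity that presents the ligand and is needed for high-affinity binding of TGF-beta 2. It gave 456, 430.9 and 468.6 in WT, against 474.7, 500 and 580.3 in the KO-labelled libraries. The groups did not overlap, but KO 1 lay only just above WT 3. The log2 difference was 0.19 (SE 0.153, 95% interval -0.12 to 0.50, limma adjusted p = 0.702), and 0.11 without KO 3. For the other Tgfbr3 probe set the signal was 90, 75.8 and 60.9 in WT, against 78.8, 71.1 and 75.3 in the KO-labelled libraries, a difference of 0.0036, so the separation was not seen in both probe sets.

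Smad6 and Smad7 are the inhibitory Smads, which block receptors and recruit ubiquitin ligases to them; Smad6 acts mainly on bone morphogenetic protein (BMP) signals and Smad7 on both arms. Smad7 gave 70.6, 40.9 and 51 in WT, against 77.5, 71.2 and 102.5 in the KO-labelled libraries. The groups did not overlap, although KO 2 and WT 1 differed by less than the spread within either group. The means were 54.2 ± 15.1 and 83.7 ± 16.6 (SD, n = 3), a ratio of 1.55, and the difference was 0.52 on the log2 scale (SE 0.181, 95% interval 0.15 to 0.88, limma adjusted p = 0.125). It did not pass, and the dimmer Smad7 probe set, whose suffix marks probes shared between transcripts, was at 0.24 (SE 0.21).

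Smad6 gave 84.4, 63.5 and 90.2 in WT, against 92.4, 94.7 and 82.4 in the KO-labelled libraries. The groups overlapped, and the difference was 0.16 on the log2 scale (SE 0.173, limma adjusted p = 0.804), with 0.034 without WT 2 and 0.24 without WT 3. The Smad6 start region is shown because, of the 9 windows searched, which include none of Tgfb3, Tgfbr3 or Smad7, it alone holds the palindrome GTCTAGAC, the sequence first defined for Smad3 and Smad4 binding. It begins 4 bases before the RefSeq start used for this window and runs across it. The Smad6 gene record begins farther upstream, at chr9:64022085, so the palindrome lies inside the gene as recorded. The palindrome stands in capitals in the 30 bases of chr9:64022045-64022074 (GRCm38.p6, minus strand, 5′ to 3′).
Smad6 start region: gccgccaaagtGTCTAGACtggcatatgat

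Ltbp1, which ties latent TGF-beta to the matrix, gave 132.9, 86.7 and 107.7 in WT, against 122.3, 128.3 and 143.2 in the KO-labelled libraries. WT 1 lay within the range of the libraries labelled KO and the other WT hearts below it. The log2 difference was 0.25 (SE 0.174, 95% interval -0.10 to 0.60, limma adjusted p = 0.635), with 0.12 without WT 2 and 0.38 without WT 1. A dim Ltbp1 probe set with a mean signal of 9.05 was at -0.24 (SE 0.195).

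Tgfbi encodes a secreted matrix protein, first found as a transcript induced by TGF-beta, that binds collagens and integrins. It had the smallest p of the 10 genes. Its signal was 118.9, 98.4 and 97.4 in WT, against 122.7, 155.1 and 206.1 in the KO-labelled libraries. The groups did not overlap, with KO 1 close to WT 1 and KO 3 the highest. The means were 105 ± 12.1 and 161 ± 42.0 (SD, n = 3), a ratio of 1.54, and the difference was 0.53 on the log2 scale (SE 0.178, 95% interval 0.17 to 0.89, limma adjusted p = 0.103). Tgfbi did not pass in this fit and did in 6 of 21 other settings, among them that without the library labelled KO 1 (0.69, limma adjusted p = 0.0253). In that setting the variance of each gene was taken from the trend on intensity. Variances also rested almost wholly on that trend with the 60th percentile filter (limma adjusted p = 0.0486). The same held for most genes with robust eBayes (limma adjusted p = 0.0497). Without KO 3 the difference was 0.35 (limma adjusted p = 0.675).

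Tgfbi had 4 probe sets, all of them brighter than the filter and all with positive differences. In a fit over all 45037 probe sets without a filter they were at 0.53, 0.61, 0.63 and 0.37 on the log2 scale, with SE from 0.177 to 0.203 and limma adjusted p from 0.288 to 0.661. The Tgfbi probe set whose suffix marks no shared probes had a signal of 60.5, 62.1 and 78.7 in WT, against 86.2, 117.4 and 136.9 in the KO-labelled libraries. It too separated the groups, and in the gene comparison without shared-probe sets it passed (0.63, limma adjusted p = 0.0398). Over all 25 probe sets of the 10 genes 23 differences were positive, against 47.0% of all probe sets, and 0 passed, against 0.102%. At an unadjusted p under 0.05 there were 4, where 8.09% of all probe sets were past that level, and 1 without KO 3. The 4 were all of Tgfbi or Smad7. Of the 25, 6 were separated upward, as were 5.54% of all probe sets. The 6 were of Tgfbi, Smad7, Tgfb2 and Tgfbr3, with several from Tgfbi. Probe sets of 1 gene on the same arrays are not separate observations. Of the 25, 22 reached the signal that the filter required.

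**Figure D2:**
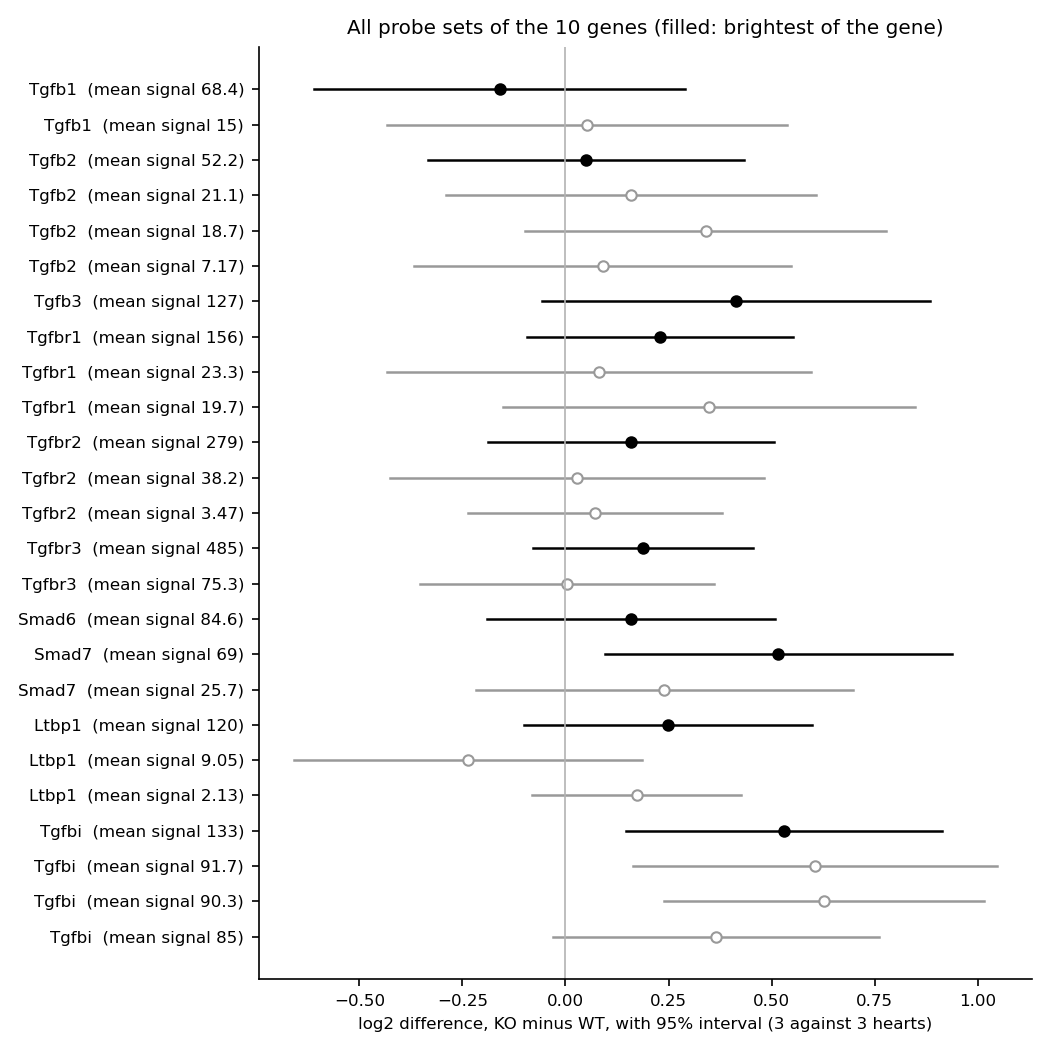
Log2 difference (KO minus WT) with its 95% interval for all 25 probe sets of the 10 genes, from the fit without a filter on 3 against 3 hearts; filled points are the brightest probe set of a gene, and the mean signal over the 6 arrays stands beside each name. The 4 Tgfbi probe sets lie between 0.37 and 0.63, and the interval of the dimmest of them includes 0, as do those of the other genes' probe sets except the brighter one of Smad7.

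The promoter of Tgfbi is shown because Tgfbi had the smallest p of the members. It is the 250 bases before the RefSeq start, chr13:56609336-56609585 (GRCm38.p6, plus strand, 5′ to 3′). Capitals mark the Smad box CAGAC, which is read here as GTCTG from the other strand, at 239 and 85 bases before the start.
Tgfbi promoter: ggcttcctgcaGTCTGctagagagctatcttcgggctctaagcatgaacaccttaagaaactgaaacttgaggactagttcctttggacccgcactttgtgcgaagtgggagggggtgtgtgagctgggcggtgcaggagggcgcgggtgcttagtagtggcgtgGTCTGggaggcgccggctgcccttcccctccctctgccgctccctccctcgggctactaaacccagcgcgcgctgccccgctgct

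RefSeq promoter windows of 300 bases, 250 before and 50 after a start, were used for 7 of the 10 members, with 9 windows in all. On either strand CAGAC was in 6 of the 9 (Tgfb2, Tgfbr2, Tgfbi, 1 of the pair of Tgfbr1 windows and both Ltbp1 windows), and in 49.6% of all 32851 windows, so it is common. GTCTAGAC was in 1 of the 9 and in 0.213% of all windows. AAGGTCA, the core of the half-site that ERRα binds, was in 0 of the 9 and in 4.72% of all windows, and its longer form TCAAGGTCA in 0 of the 9 and in 0.423%. The longer form contains the shorter one, and CAGAC does not occur inside GTCTAGAC. A match is a run of letters in this window, and the lack of one says nothing about the rest of the gene.

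By a measure fixed for the member of smallest p, the other genes whose profile over the 6 hearts was most like that of Tgfbi were Mmp14, Gpx1 and Ifi30. The measure was the root mean square difference of the log2 values after each gene was centred on its mean, which was 0.0337 for Mmp14, 0.0437 for Gpx1 and 0.0472 for Ifi30. Mmp14, a membrane-bound collagenase, gave 65.3, 56.3 and 56.4 in WT, against 69.8, 86.6 and 123.3 in the KO-labelled libraries, the same order of hearts at the top as Tgfbi. Gpx1 is a glutathione peroxidase and Ifi30 a lysosomal thiol reductase. Among the members Smad7 was closest to Tgfbi, at 0.166, and Tgfb1 farthest, at 0.393.

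The rest of the pathway was read from 5 lists holding 96 genes, of which 87 were tested. Of these, 6 rose, 1 fell and 80 did not pass, with a median log2 difference of 0.13; of all genes tested 1.81% rose and 1.19% fell, and their median was -0.028. The 7 were all in the lists of response genes and of the BMP and activin arm. Without WT 1 the count was 3, all higher. At an unadjusted p under 0.05 there were 34 of the 87 without WT 1, against 28 in the main fit. Over all genes tested that level was reached by 1927 without WT 1, against 1626. With quantile normalization the count past the threshold was 12, all higher.

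Of 6 Smad transducers 0 passed, and the median was -0.03. Smad3, the transducer most tied to fibrotic gene induction, gave 139.2, 91.2 and 112.1 in WT, against 138.6, 163.6 and 157.1 in the KO-labelled libraries (log2 difference 0.39, SE 0.174, limma adjusted p = 0.305). Smad9, a BMP Smad, was dim, with a signal of 15.6 or less in each heart and a difference of -0.29 (SE 0.24, limma adjusted p = 0.709).

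Of 16 tested genes of latency, storage and activation 0 passed, with a median of 0.13, and 6 were separated upward, where 6.80% of all genes were. Fmod, fibromodulin, a collagen-binding proteoglycan that also binds TGF-beta, gave 113.6, 104.4 and 123 in WT, against 171.3, 169.2 and 175 in the KO-labelled libraries. The groups were far apart for their spread, with a difference of 0.54 (SE 0.167, limma adjusted p = 0.0691), and Fmod passed with quantile normalization (adjusted p = 0.0315). The Fmod probe set read has a suffix that marks shared probes. Thbs1, thrombospondin 1, which activates latent TGF-beta, gave 36.7, 31.7 and 43.1 in WT, against 64.2, 70.3 and 45.9 in the KO-labelled libraries (0.51, SE 0.181, limma adjusted p = 0.132).

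Of 19 co-receptors and other inhibitors 0 passed, with a median of 0.07. Ski, a nuclear corepressor of Smads, gave 216.7, 146.3 and 142.8 in WT, against 210.6, 243.8 and 298.6 in the KO-labelled libraries (0.54, SE 0.176, limma adjusted p = 0.0853), and passed with quantile normalization (adjusted p = 0.0297). Pmepa1, a TGF-beta induced membrane protein that sequesters Smad2 and Smad3, gave 115, 78.2 and 108.1 in WT, against 133.5, 152.1 and 150.4 in the KO-labelled libraries, with no overlap (0.48, SE 0.173, limma adjusted p = 0.139).

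Response genes held most of the calls. Of 23 tested, 4 rose, 1 fell and 18 did not pass, where 3.00% of all genes passed, and the median was 0.31. Ccn2, connective tissue growth factor, gave 235.8, 262.3 and 259.2 in WT, against 818.5, 725 and 615 in the KO-labelled libraries. Every KO-labelled library lay far above every WT heart, with means of 252 ± 14.5 and 719.5 ± 102 (SD, n = 3) and a difference of 1.45 (SE 0.158, limma adjusted p = 3.31e-09). Ccn2 passed in all 21 other settings.

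Cdkn1a, the cell cycle inhibitor p21, gave 103.7, 76 and 82 in WT, against 127.3, 182.2 and 319.3 in the KO-labelled libraries (1.05, SE 0.198, limma adjusted p = 0.000405). The groups did not overlap, and the libraries labelled KO spread widely. Without WT 1 the difference was 1.16 and the limma adjusted p 0.0832.

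Acta2, smooth muscle actin, gave 1602.8, 1221.2 and 2037.9 in WT, against 2028, 3281.9 and 3732.8 in the KO-labelled libraries (0.87, SE 0.153, limma adjusted p = 0.000134). KO 1 fell just below WT 3, so the groups overlapped. The call was lost in 7 of 21 other settings, and the brightest Acta2 probe set without shared probes was at 0.25.

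Col3a1, a fibrillar collagen, gave 1812, 1433 and 1600.7 in WT, against 1952.9, 2097.8 and 2820.7 in the KO-labelled libraries (0.49, SE 0.133, limma adjusted p = 0.0264). The groups did not overlap, and the call was lost in 9 of 21 other settings, among them those without KO 3 (0.33), WT 1 (0.57), WT 2 (0.41) and WT 3 (0.48).

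Ccn1, a matricellular relative of Ccn2, was the gene that fell. It gave 156.4, 163 and 222.2 in WT, against 112, 72.1 and 112.2 in the KO-labelled libraries, with no overlap (-0.78, SE 0.179, limma adjusted p = 0.00522). The probe set read has a suffix that marks shared probes, and the call was lost in 8 of 20 other settings.

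In the BMP and activin arm 2 of 23 tested genes rose, 0 fell and 21 did not pass, where 3.00% of all genes passed, and the median was 0.10. Bmp10, a BMP ligand made by atrial myocytes, gave 20.3, 5.7 and 33.1 in WT, against 117.4, 71.6 and 77 in the KO-labelled libraries (1.60, SE 0.208, limma adjusted p = 2.45e-07). It is also among the 8 atrial myocyte markers, of which 6 rose and 0 fell; their summed signal was 3059 to 9720 in WT and 13710 to 16330 in the libraries labelled KO, and without Bmp10 it was 3053 to 9687 and 13640 to 16210. The part of these markers in the Bmp10 result, or in any other result here, was not tested. Id2, a transcriptional inhibitor induced by BMP, gave 33, 30.9 and 46 in WT, against 94.8, 77.7 and 80.7 in the KO-labelled libraries (0.94, SE 0.176, limma adjusted p = 0.000366). The Id2 probe set read has a suffix that marks shared probes. Its call was lost in 1 of 20 other settings, that with no filter (limma adjusted p = 0.0537). Bmp10 and Id2 both separated the groups.

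**Figure D3:**
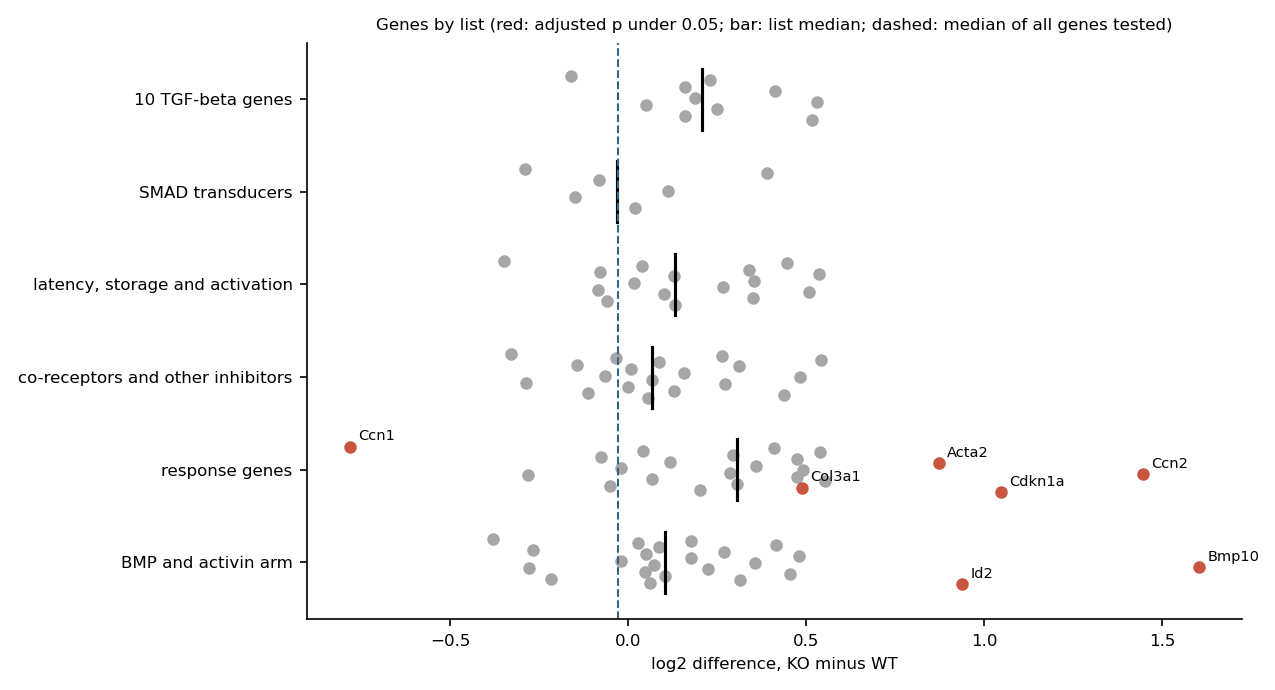
Log2 difference (KO minus WT) of each tested gene of the 10 TGF-beta genes and of 5 pathway lists; red points passed at an adjusted p under 0.05, black bars are list medians and the dashed line is the median of all genes tested (-0.028). No red point lies among the 10 TGF-beta genes, the Smad transducers, the latency genes or the inhibitors.

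Tgfbi and several response genes are made by fibroblasts, and fibroblast markers moved with them. Of 11 such markers 2 passed, Vim and Col3a1, both higher, where 1.81% of all genes passed as higher. Of the 11, 9 were separated upward, where 6.80% of all genes were, and the median of these markers was 0.39. Their summed signal was 7712 to 9257 in WT and 10620 to 12120 in the libraries labelled KO, where KO 3 was the highest heart, as it was for Tgfbi and Smad7. That place of KO 3 was not particular to fibroblasts. It was also the highest heart for the endothelium (118.8% of the WT mean), smooth muscle and pericyte (145.8%), macrophage (128.1%) and adipocyte (146.4%) sums. Among the adipocyte markers KO 3 was highest for Fabp4, which made up most of that sum, and for Cidec. KO 2 was highest for Adipoq, Retn and Car3. Col1a1, Col1a2 and Col3a1 stand on both the fibroblast list and that of the response genes. Without Col3a1 the fibroblast sum was 6279 to 7445 in WT and 8520 to 9298 in the libraries labelled KO. Dcn, the brightest fibroblast marker (WT mean 2963), is also among the 6 latency, storage and activation genes separated upward. The fibroblast sum was not taken without Dcn. None of the markers was at 0, and their part in the Tgfbi and Col3a1 results was not tested. In RNA from a whole heart, more cells of a type and more RNA per cell cannot be told apart.

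Other cell types were read in the same way. Over all genes tested, 1.81% passed as higher, 1.19% passed as lower and 6.80% were separated upward. Smooth muscle and pericyte markers summed to 5242 to 6200 in WT and 6542 to 8535 in the libraries labelled KO, with 2 of 9 higher (Acta2, shared with the response genes, and Cnn1), and 0 of the 9 separated the groups. Without Acta2 the sums overlapped, at 4021 to 4597 and 3991 to 4802. Most of each was then Rgs5, at 3469.8, 2996.6 and 2966.2 in WT, against 3216.3, 2786.5 and 3621.2 in the KO-labelled libraries. Whether Acta2 alone separated the groups cannot be read from these sums, since none was taken without Rgs5. Macrophage markers overlapped, at 2361 to 3602 and 2579 to 3784, with 1 of 11 higher (Cd163). Endothelial markers overlapped too, at 1772 to 2305 and 1905 to 2353, with 0 of 10 past the test. Platelets are rich in TGF-beta 1, and of 5 platelet markers 0 rose and 2 fell, Ppbp and Treml1, with sums of 416.5 to 641 in WT and 387.4 to 474.5 in the libraries labelled KO. Of 2 erythroid markers 0 passed. Of 5 adipocyte markers 4 rose (Adipoq, Retn, Cidec and Car3) and 0 fell, where 1.81% of all genes rose. Fabp4 had a negative difference. The sums of all 5 overlapped, at 3398 to 4105 in WT and 3784 to 5582 in the libraries labelled KO. Most of each sum was Fabp4, at 4025.1, 3322.5 and 3835.7 in WT, against 3467.9, 3255.4 and 4040.2 in the KO-labelled libraries. The overlap is thus largely that of Fabp4, and no sum was taken without it. Adipoq gave 22.3, 15.7 and 17 in WT, against 54, 390.7 and 323 in the KO-labelled libraries. Car3 gave 29.7, 42.8 and 67.8, against 235, 1331.5 and 1147.7. The part of adipocytes in the other results was not tested. Of 9 cardiomyocyte markers 0 passed.

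**Figure D4:**
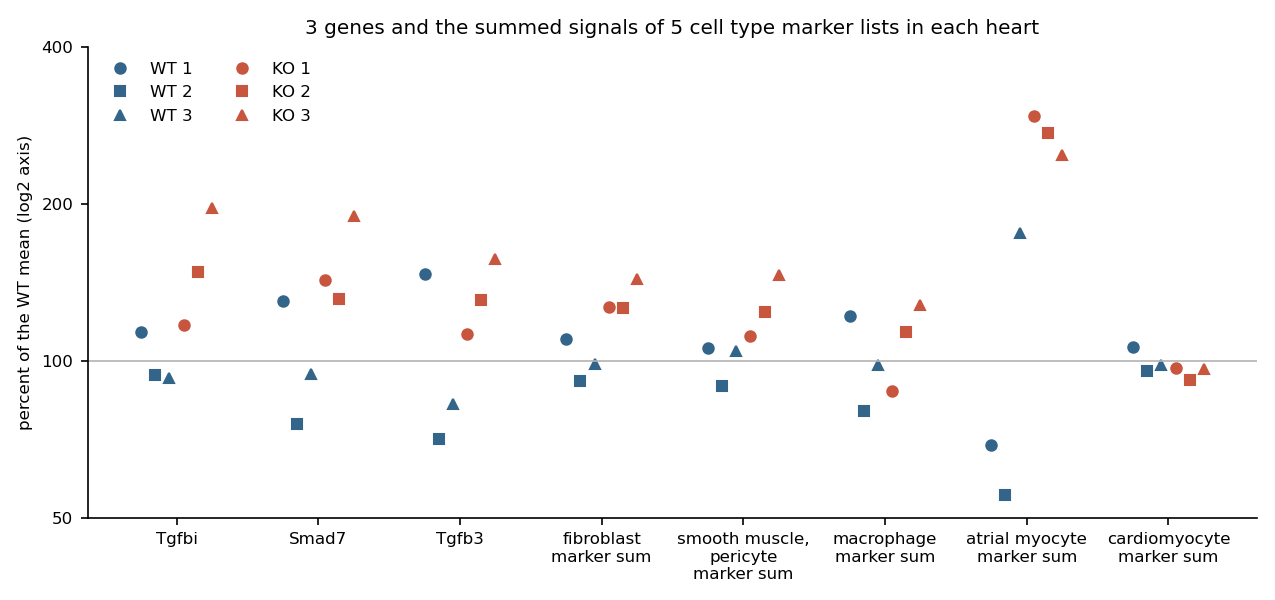
Signal of Tgfbi, Smad7 and Tgfb3 and the summed signals of 5 cell type marker lists in each heart, as a percent of the WT mean on a log2 axis; blue is WT and red the libraries labelled KO. KO 3 stands at 196.5% for Tgfbi, 189% for Smad7 and 143.8% for the fibroblast markers. It is also the highest heart for the smooth muscle and pericyte sum (145.8%) and the macrophage sum (128.1%). The macrophage and cardiomyocyte sums overlap between the groups.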

How the data were processed

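RNA from 6 hearts, labelled as separate mice, was hybridised to 1 array each. What the authors deposited is a linear signal intensity for each probe set, computed with MAS5 per the submitters' processing notes; neither the scaling target nor detection calls were at hand, so dim signals could not be told from background. Of 45099 probe sets (62 of them controls), 34945 have 1 symbol, 932 several and 9160 none. Values entered as log2(signal + 16), which understates differences of dim genes. Probe sets at or above the 40th percentile of mean signal (8.58) were kept, and the brightest stood for its gene. The test was limma 3.58.1 (lmFit, then eBayes with a trend on intensity; R 4.3.3), run two-sided and checked on simulated data; genes passed at a Benjamini-Hochberg adjusted p under 0.05. With 45.7 prior degrees of freedom, p-values rest largely on variance pooled over genes of similar intensity. Without WT 1 there were 7.26, so counts past the threshold in that setting also reflect less pooling. The number of arrays limits the precision.

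Members and lists were chosen with earlier results of these data known. The text names all members, Esrra, each pathway list's genes past the threshold (otherwise the 2 of smallest p) and the 3 genes nearest in profile to the member of smallest p. The 5 pathway lists were Smad transducers; latency, storage and activation; co-receptors and other inhibitors; response genes; and the BMP and activin arm. The 9 marker lists were fibroblast, endothelium, smooth muscle and pericyte, macrophage, platelet, erythroid, adipocyte, atrial myocyte and cardiomyocyte. Alternatives changed the pseudocount, scaling, filter, probe set rule, variance model, weights, block and hearts. The labels do not pair equal heart numbers.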

Additional observations from a re-analysis of the deposited data

How the results depend on the processing

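In 21 other settings the members' differences kept their direction and their side of the threshold in 198 of 210 cases. Where only the filter, the variance model or the block changed, the differences equalled those of the main fit. Those cases therefore say nothing about direction, and the count overstates how far direction was tried. Tgfb1 turned to 0.16 without WT 1 and KO 1, and with 1 heart left out ranged from -0.35 (without WT 2) to 0.043 (without WT 1). Tgfb2 turned to -0.060 without KO 2, the lowest with 1 heart left out, where the highest was 0.17, and was 0.22 without WT 1 and KO 1; neither passed in any setting, and the cause was not tested. The count of members past the threshold, 0 of 10, was 1 (Tgfbi) with a filter at the 60th percentile, without shared-probe sets and with robust eBayes, 3 (Tgfbi, Smad7 and Tgfb3) with array weights, and 2 (Tgfbi and Tgfb3) without WT 1 and KO 1, a setting chosen after seeing the data. Leaving out 1 heart gave 0 to 1, with the 1 being Tgfbi without KO 1. With quantile normalization it was 0, with Tgfbi and Smad7 at an adjusted p of 0.068 and 0.07 in limma.

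The 7 pathway genes of 87 tested became 12 with quantile normalization, 13 with cyclic loess and 4 with no intensity trend. They became 12 with robust eBayes, 19 with array weights, 18 without WT 1 and KO 1, and 3 to 9 with 1 heart left out. Some settings tested another number of genes. There were 2 of 89 with no filter, 12 of 71 with the 60th percentile filter and 3 of 79 without shared-probe sets. Ccn1 and Id2 were not tested without shared-probe sets. Over all genes the count of 389 (235 higher, 154 lower) became 67 with no filter, 166 with no intensity trend, 617 with array weights and 600 without WT 1 and KO 1, and 128 (without WT 1) to 510 (without KO 1) with 1 heart left out; without KO 3 it was 204. With the filter set on mean log2 signal, also chosen after seeing the data, 384 of 12946 genes passed. No member probe set passed in any setting of the fit without a filter that was run. The median difference over all genes stayed between -0.07 and 0.06.

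With the replicate number as a block 392 genes, 0 members and 7 pathway genes passed. Same-numbered hearts did not deviate together (r across genes 0.028, -0.021 and 0.03), and not every heart correlated best with its own number, so the block is no evidence of pairing. Where detection calls are not at hand, signal over background sets no stated limit for the 3 member probe sets below the filter.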
